A study of Mus musculus with 12 samples.

Results

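Mammary tumours of MMTV-PyMT mice given PLX, paclitaxel (PTX) and an antibody against PD-L1 were compared with tumours of the same model given PTX alone. The comparison rests on 4 of the 12 libraries of the series, chosen by their treatment labels: 2 libraries of the group PLX+PTX+aPD-L1 and 2 of the group PTX. The other 8 libraries, of PLX+PTX (2) and of PLX+PTX+aPD-1 with the suffixes R (3) and NR (3), served to estimate the spread and as points of reference. The labels do not spell out R and NR. All groups carry the MMTV-PyMT transgene, in which the promoter of mouse mammary tumour virus drives the polyoma middle T antigen in mammary epithelium, and all received PTX. PLX is read here as the CSF1R inhibitor that the series title names. The 2 groups therefore differ in 2 agents, the CSF1R inhibitor and the antibody, whose effects cannot be told apart in this comparison. The labels used here give no age, dose or time. Nor do they say whether each library is a different animal. The p-values then reflect no more than the spread among these samples, part of which may be technical.

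Paclitaxel is a chemotherapy that stabilises microtubules and blocks dividing cells. CSF1R is the receptor through which the growth factor Csf1 sustains most macrophages, and its inhibitors deplete many tumour macrophages. PD-L1, encoded by Cd274, is displayed by tumour and myeloid cells and restrains T cells through the receptor PD-1, encoded by Pdcd1, and antibodies against either protein are given to release T cells.

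RNA from snap-frozen tumour pieces was amplified for the targets of an nCounter immuno-oncology panel, which counts fluorescent barcodes on chosen transcripts. The panel held 750 probes of endogenous genes and 20 of housekeeping genes, with 6 positive and 8 negative controls. The PLX+PTX+aPD-L1 libraries were the less intense: total endogenous counts were 141021 and 98741 in PLX+PTX+aPD-L1 tumours, against 531086 and 390582 in PTX tumours. The geometric mean of the housekeeping probes was 189 and 86.6 counts in PLX+PTX+aPD-L1 tumours, against 450.2 and 339.97 counts in PTX tumours. Levels below are counts scaled to equal housekeeping geometric means, called scaled counts. The detection limit, the mean of a library's negative controls plus 2 SD, was 43.1 and 65.5 scaled counts in PLX+PTX+aPD-L1 tumours, against 15.7 and 24.1 scaled counts in PTX tumours. A total of 406 and 408 endogenous probes lay above it in PLX+PTX+aPD-L1 tumours, against 550 and 472 in PTX tumours, and 359 did so in all 4 libraries. Scaling thus lifts the background of the PLX+PTX+aPD-L1 libraries. The 183 probes below the limit in all 4 libraries had a median log2 ratio of 0.79, PLX+PTX+aPD-L1 over PTX (quartiles 0.43 and 1.19), where the median over all 615 tested probes was 0.00. The place against the limit is therefore given for many of the low genes below, though not for all.

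Of 615 tested endogenous probes, 20 (3.25%) passed the threshold of 0.05 for the adjusted p of edgeR's quasi-likelihood test. Higher in PLX+PTX+aPD-L1 tumours were 19 (3.09%) and lower was 1 (0.163%). At an unadjusted p under 0.05 there were 71 higher (11.5%) and 38 lower (6.18%). The split of calls moved with the scaling and the test. DESeq2 called 27 higher and 12 lower, limma on the deposited log2 values called 27 higher and 23 lower, and scaling on the positive controls called 9 higher and 356 lower. Of the 19 higher genes, 14 exceeded the limit in each PLX+PTX+aPD-L1 library, 2 were so in 1 of these libraries (Fut4 and Btla), and 3 were below it in all 4 libraries (Il22ra1, Gzma and Cd2). Before any scaling, 13 of the 19 had raw counts in both PLX+PTX+aPD-L1 libraries above those of both PTX libraries. With 1 library left out, 26 genes were higher without the first PLX+PTX+aPD-L1 library, 6 without the second, 2 without the first PTX library and 5 without the second. Without the first or second PLX+PTX+aPD-L1 library, the median log2 fold change over all tested probes was 0.19 or -0.17. Without the first or second PTX library it was 0.05 or -0.01. With the negative controls subtracted and limma fitted to the log2 counts, 8 of the 20 called genes still passed, Sox2, Wnt11, Zap70 and Hc among them. Btla, Cd2 and Il22ra1 were also among the 8, although Cd2 and Il22ra1 were below the limit in all 4 libraries. Passing in that setting thus does not show a signal above background. A test of only the 359 probes above the limit in all 4 libraries, a filter chosen after seeing the data, removes any gene that is at background in 1 group and kept 4 of the 20. None of the 4 passed there (46 at an unadjusted p under 0.05 in edgeR's quasi-likelihood test), while their log2 fold changes were 2.38 for Kdr, 2.37 for Jag1, 1.98 for Cxcl12 and -2.16 for Angptl4, close to those given below.

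**Figure D1:**
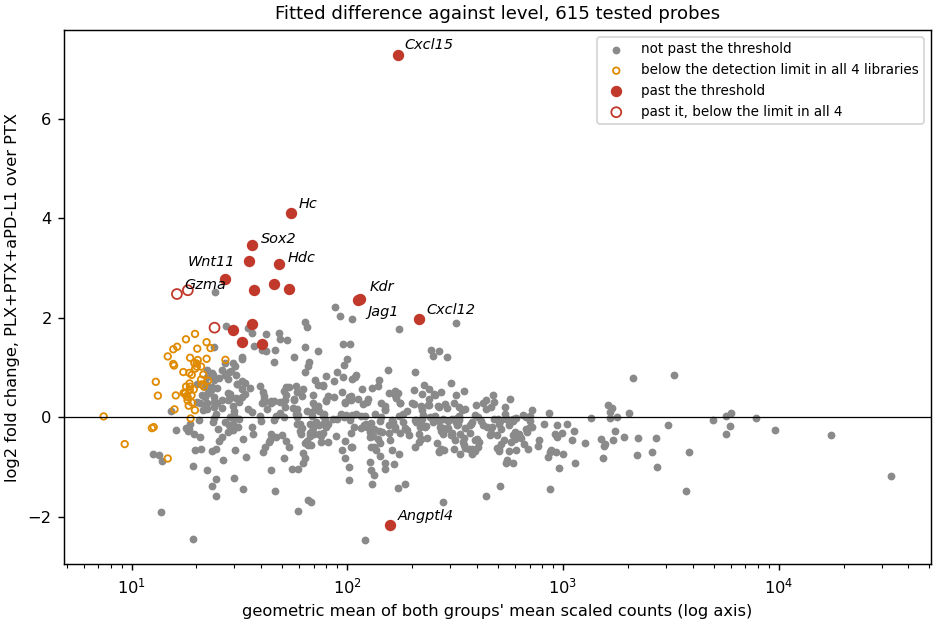
The fitted log2 fold change of each of 615 tested probes (vertical axis, PLX+PTX+aPD-L1 over PTX) is plotted against the geometric mean of both groups' scaled counts (horizontal log axis). Filled red points passed the adjusted p of 0.05, open points lay below the detection limit in all 4 libraries, and most open points lie above 0.

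The largest fitted rises were those of Cxcl15 and Hc, given first with other secreted proteins. Cxcl15, a chemokine that attracts neutrophils and is best known from mouse lung epithelium, had 848 and 3464 scaled counts in PLX+PTX+aPD-L1 tumours, against 13.9 and 13.3 scaled counts in PTX tumours. Both PTX values lay below the detection limit, so the rise is given as at least 88.0-fold, taken against that limit (adjusted p = 0.0129, edgeR's quasi-likelihood test). The raw counts were 639 and 1199 in PLX+PTX+aPD-L1 tumours, against 25 and 18 in PTX tumours, so this difference stood before scaling. DESeq2 gave no adjusted p for Cxcl15, so that setting does not decide the call. The call was lost with the negative controls subtracted, where limma replaced edgeR (adjusted p = 0.0846, limma). It was also lost without the second PLX+PTX+aPD-L1 library, at a log2 fold change of 5.95. Without the first or second PTX library it was lost as well, at log2 fold changes of 7.33 and 7.26. Among the 6 R and NR libraries Cxcl15 reached 265 scaled counts in 1 library, and its mean in PLX+PTX tumours was 13.2.

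Hc encodes complement component C5, whose cleavage yields an attractant of myeloid cells. It had 79.6 and 384 scaled counts in PLX+PTX+aPD-L1 tumours, against 12.2 and 13.99 scaled counts in PTX tumours, at least 8.99-fold higher (adjusted p = 0.0030, edgeR). The PLX+PTX+aPD-L1 libraries themselves differed several-fold, and both lay above both PTX libraries. Cxcl12, the ligand of Cxcr4 made by stromal cells, stood at 465 and 393 scaled counts in PLX+PTX+aPD-L1 tumours, against 100.1 and 118 scaled counts in PTX tumours. Its log2 fold change was 1.98 ± 0.40 (SE, adjusted p = 0.0182, edgeR), and all 4 libraries were above the limit. Leaving out any 1 of the 4 libraries, or subtracting the negative controls, ended this call. Tnfsf13b, the B cell survival factor BAFF, was chosen after its values were seen: it had 45.1 and 66.5 scaled counts in PLX+PTX+aPD-L1 tumours, against 20.0 and 17.7 scaled counts in PTX tumours (log2 fold change 1.52 ± 0.34, SE, adjusted p = 0.0319, edgeR). Its PLX+PTX+aPD-L1 values lay just above the limit. With positive-control scaling, where the median of all tested probes was -1.45, its log2 fold change was 0.06 and the call was lost. The Tnfsf13b call also ended with the negative controls subtracted and with the 4 libraries fitted alone. It ended as well without the second PLX+PTX+aPD-L1 library and without either PTX library.

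Sox2, a transcription factor of stem and progenitor cells, had 115 and 124 scaled counts in PLX+PTX+aPD-L1 tumours, against 7.78 and 13.99 scaled counts in PTX tumours. This is at least 6.15-fold higher (adjusted p = 0.000257, edgeR), the smallest adjusted p of the comparison, and Sox2 passed in all 15 alternative settings in which it was tested. The libraries of each group lay close together here, with wide space between the groups. Wnt11, a Wnt ligand that signals mostly without beta-catenin, had 114 and 95.4 scaled counts in PLX+PTX+aPD-L1 tumours, against 11.1 and 12.5 scaled counts in PTX tumours, at least 5.36-fold higher (adjusted p = 0.0030, edgeR). For both genes the PTX values were those of background.

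Jag1, a Notch ligand, and Hmga1, a chromatin protein of growing cells, lie outside the naming rule and were chosen after their values were seen. Jag1 had 334 and 173 scaled counts in PLX+PTX+aPD-L1 tumours, against 48.9 and 50.1 scaled counts in PTX tumours (log2 fold change 2.37 ± 0.58, SE, adjusted p = 0.0491, edgeR). Hmga1 had 54.4 and 80.9 scaled counts in PLX+PTX+aPD-L1 tumours, against 25.6 and 22.1 scaled counts in PTX tumours (log2 fold change 1.47 ± 0.36, SE, adjusted p = 0.0491, edgeR). Jag1 was above the limit in all 4 libraries, and its call likewise ended without any 1 of them and with the negative controls subtracted. For Hmga1 the direction flipped to -0.0033 on the log2 scale with positive-control scaling, which moved the median of all tested probes to -1.45. The Hmga1 call also ended with the negative controls subtracted and with the 4 libraries fitted alone. It ended as well without the second PLX+PTX+aPD-L1 library and without either PTX library.

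Enzymes were called as well. Hdc, histidine decarboxylase, which makes histamine, had 122 and 162 scaled counts in PLX+PTX+aPD-L1 tumours, against 20.0 and 12.5 scaled counts in PTX tumours (log2 fold change 3.09 ± 0.51, SE, adjusted p = 0.0053, edgeR). Tymp, thymidine phosphorylase, an enzyme of nucleoside breakdown that also promotes vessel growth, had 99.5 and 133 scaled counts in PLX+PTX+aPD-L1 tumours, against 16.7 and 19.1 scaled counts in PTX tumours (log2 fold change 2.68 ± 0.34, SE, adjusted p = 0.00117, edgeR). Both were above the limit in each PLX+PTX+aPD-L1 library and in 1 PTX library. Both calls ended with the negative controls subtracted, where limma replaced edgeR (adjusted p = 0.0582 for Hdc and 0.187 for Tymp, limma). The Hdc call also ended without the first or second PTX library, at log2 fold changes of 3.48 and 2.81. Fut4, a fucosyltransferase that builds the Lewis x sugar of myeloid cells, was chosen after its values were seen. It had 42.5 and 98.2 scaled counts in PLX+PTX+aPD-L1 tumours, against 15.6 and 21.4 scaled counts in PTX tumours (adjusted p = 0.0445, edgeR). With 1 PLX+PTX+aPD-L1 library above the limit and no PTX library above it, no fold is given for Fut4.

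**Figure D2:**
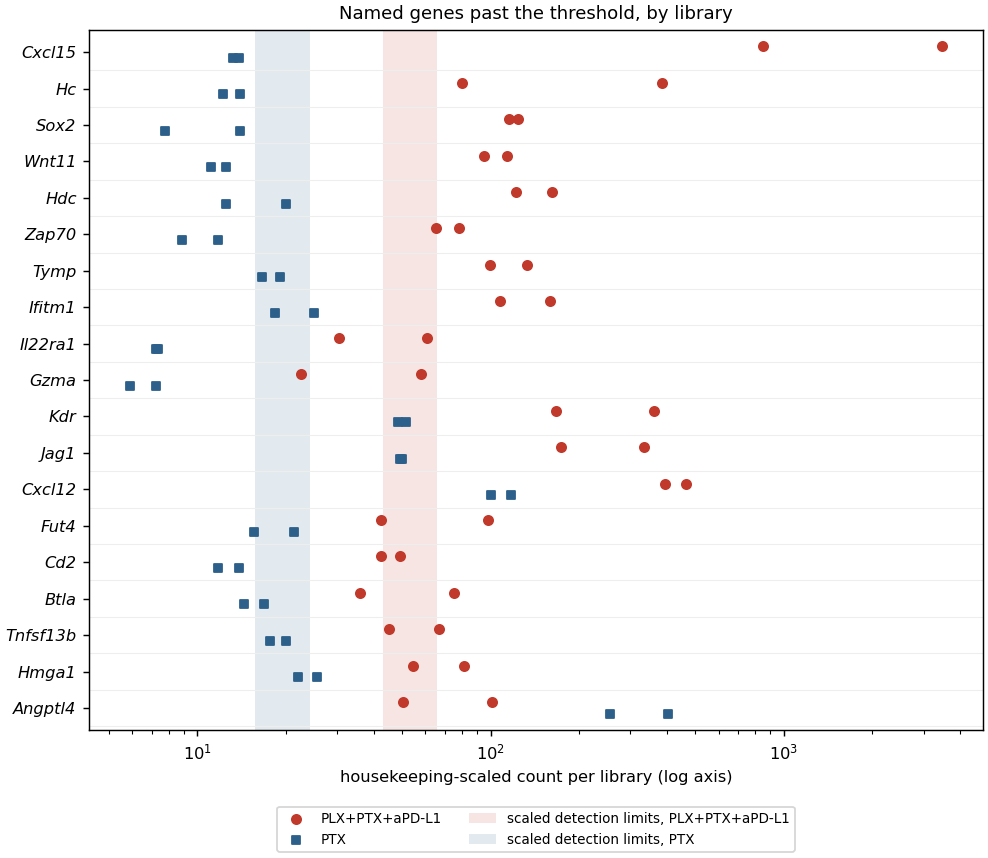
Scaled counts (log axis) of the named genes past the threshold are shown for each of the 2 PLX+PTX+aPD-L1 and 2 PTX libraries, with the detection limits marked. The PLX+PTX+aPD-L1 points lie below the PTX points for Angptl4 and above them for every other gene shown.

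Genes of lymphocytes and other leukocytes were called at low levels. Zap70, a kinase recruited to the T cell receptor, had 65.0 and 78.0 scaled counts in PLX+PTX+aPD-L1 tumours, against 8.90 and 11.8 scaled counts in PTX tumours, at least 3.66-fold higher (adjusted p = 0.0030, edgeR). It was above the limit in each PLX+PTX+aPD-L1 library and in no PTX library. Btla, an inhibitory receptor of B and T cells, had 35.8 and 75.1 scaled counts in PLX+PTX+aPD-L1 tumours, against 14.5 and 16.9 scaled counts in PTX tumours (adjusted p = 0.0256, edgeR). With 1 PLX+PTX+aPD-L1 library above the limit and no PTX library above it, no fold is given for Btla. Its ligand gene Tnfrsf14 did not pass: it had 83.6 and 162 scaled counts in PLX+PTX+aPD-L1 tumours, against 30.02 and 38.3 scaled counts in PTX tumours (adjusted p = 0.0627, edgeR).

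For 3 called genes no library gave a signal above the limit, and no fold is given. Cd2, an adhesion receptor of T and NK cells, had raw counts of 32 and 17 in PLX+PTX+aPD-L1 tumours, against 25 and 16 in PTX tumours (adjusted p = 0.0399, edgeR). The cytotoxic protease gene Gzma had raw counts of 17 and 20 in PLX+PTX+aPD-L1 tumours, against 13 and 8 in PTX tumours (adjusted p = 0.0319, edgeR). Il22ra1, the epithelial receptor of interleukin 22, had raw counts of 23 and 21 in PLX+PTX+aPD-L1 tumours, against 13 and 10 in PTX tumours (adjusted p = 0.0126, edgeR). The limits in raw counts were 32.5 and 22.7 in PLX+PTX+aPD-L1 tumours, against 28.2 and 32.8 in PTX tumours, so none of these raw counts exceeded the limit of its library.

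The lymphocyte lists as wholes gave little signal. Of 18 T cell genes on the panel, 9 could be tested, 2 passed as higher (Zap70 and Cd2) and 7 did not. The fitted log2 fold change of the 9 had a median of 0.44 and was above 0 in 7, beside a median of 0.00 over all tested probes. Without the second PLX+PTX+aPD-L1 library the median was -0.04 with 3 of 8 above 0, without the first it was 0.88 and without the first PTX library 0.74. In all 4 libraries 12 of the 18 were below the limit, Cd3d, Cd3e, Cd5 and Foxp3 among them. The summed level of the list was 364 and 537 scaled counts in PLX+PTX+aPD-L1 tumours, against 223 and 224 scaled counts in PTX tumours. The scaled mean of the negative controls, 21.9 and 32.5 in PLX+PTX+aPD-L1 tumours against 10.7 and 14.1 in PTX tumours, moved the same way, and its part in the sum was not tested.

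Cytotoxic genes were fainter still. Of 18 genes of CD8 T cells, NK cells and their effectors, 11 were tested, 1 passed (Gzma), and 10 had a log2 fold change above 0 (median 0.61). In all 4 libraries 13 of the 18 were below the limit. Of all 615 tested probes 311 were above 0, and probes below the limit in all 4 libraries had a median log2 ratio of 0.79. The median of the list was 1.16 without the first PLX+PTX+aPD-L1 library and 0.33 without the second. The summed level was 321 and 592 scaled counts in PLX+PTX+aPD-L1 tumours, against 230 and 274 scaled counts in PTX tumours. Cd8a, the CD8 coreceptor, gave 7 and 5 raw counts in PLX+PTX+aPD-L1 tumours, against 17 and 9 in PTX tumours, and was too low to be tested. Ifng, the T cell cytokine interferon gamma, gave 3 and 4 raw counts in PLX+PTX+aPD-L1 tumours, against 5 and 7 in PTX tumours, and was not tested either. These markers were thus at the level of the negative controls in both groups. Gzmb, a second granzyme, had 25.2 and 37.6 scaled counts in PLX+PTX+aPD-L1 tumours, against 22.2 and 17.7 scaled counts in PTX tumours (adjusted p = 0.481, edgeR), with both PLX+PTX+aPD-L1 values below the limit. Il2rb, a receptor chain for interleukins 2 and 15, had 46.5 and 106.9 scaled counts in PLX+PTX+aPD-L1 tumours, against 15.6 and 30.9 scaled counts in PTX tumours, and did not pass (adjusted p = 0.104, edgeR).

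Of 14 B cell and lymph node genes on the panel 7 were tested, and all 7 had log2 fold changes above 0 (median 1.02). The summed level was 437 and 685 scaled counts in PLX+PTX+aPD-L1 tumours, against 138 and 253 scaled counts in PTX tumours, and 10 of the 14, the B cell receptor components Cd79a and Cd79b included, were below the limit in all 4 libraries. Ccl21a, a chemokine of lymph nodes and lymphatic vessels that was chosen after its values were seen, had 146 and 269 scaled counts in PLX+PTX+aPD-L1 tumours, against 10.0 and 95.7 scaled counts in PTX tumours (adjusted p = 0.285, edgeR). The PTX libraries lay far apart for it.

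Immune checkpoint genes, 20 tested of 29, included 1 call, Btla, and their log2 fold changes had a median of 0.34 with 12 above 0. The median was -0.39 with the negative controls subtracted (8 of 20 above 0) and -0.12 without the second PLX+PTX+aPD-L1 library (9 of 20 above 0). Over all tested probes the medians in these 2 settings were -0.34 and -0.17. Cd274 itself, which encodes PD-L1, had 18.6 and 66.5 scaled counts in PLX+PTX+aPD-L1 tumours, against 20.6 and 22.8 scaled counts in PTX tumours (log2 fold change 0.85, adjusted p = 0.517, edgeR). The groups overlapped, and 1 library of each was above the limit. Pdcd1, which encodes PD-1, gave 9 and 6 raw counts in PLX+PTX+aPD-L1 tumours, against 12 and 13 in PTX tumours, and was not tested. Lag3, an inhibitory T cell receptor, did not pass, at 35.8 and 52.0 scaled counts in PLX+PTX+aPD-L1 tumours, against 22.2 and 17.7 scaled counts in PTX tumours (adjusted p = 0.164, edgeR). Both PLX+PTX+aPD-L1 values of Lag3 lay below the limit. An effect on the target protein of the antibody is not measured by these transcripts.

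Macrophage and monocyte genes, those that CSF1R inhibition bears on, held no call among 24 tested of 26. Their log2 fold changes were below 0 in 19 and above 0 in 5, with a median of -0.72, beside a median of 0.00 over all tested probes, and 7 were lower at an unadjusted p under 0.05, a level at which 6.18% of all tested probes were lower. Without the first PTX library the median was -0.27 with 7 of 23 above 0, and without the second it was -1.08 with 2 of 24 above 0. With the negative controls subtracted it was -1.49 with 1 of 24 above 0, where the median over all tested probes was -0.34. The summed level of the list was 8797 and 44437 scaled counts in PLX+PTX+aPD-L1 tumours, against 65084 and 57056 scaled counts in PTX tumours. Among the genes of the list, Spp1 gave 4281 and 39921 of the PLX+PTX+aPD-L1 sums and most of both PTX sums. Other tests called a few of these genes lower, 2 with DESeq2 and 3 with limma on the deposited log2 values, and positive-control scaling, where the median of all tested probes was -1.45, called 20 lower. Scaling on total endogenous counts called 1 higher and 0 lower, with a median of -0.33 and 8 above 0. In bulk tumour RNA, fewer macrophages and less RNA per macrophage cannot be told apart. Csf1r had 111 and 127 scaled counts in PLX+PTX+aPD-L1 tumours, against 320 and 133 scaled counts in PTX tumours (log2 fold change -0.93 ± 0.48, SE, adjusted p = 0.367, edgeR). The upper PTX library stood well apart, and the lower one lay next to the PLX+PTX+aPD-L1 libraries. Its ligand gene Csf1 had 115 and 257 scaled counts in PLX+PTX+aPD-L1 tumours, against 186 and 164 scaled counts in PTX tumours (log2 fold change 0.07, adjusted p = 0.963, edgeR), so these groups overlapped.

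Several macrophage products had lower values in both PLX+PTX+aPD-L1 libraries without passing the test. Ms4a4a, a membrane protein of tissue macrophages, had 41.1 and 31.8 scaled counts in PLX+PTX+aPD-L1 tumours, against 157 and 78.0 scaled counts in PTX tumours, at least 2.08-fold lower (adjusted p = 0.0770, edgeR). C1qb, a chain of complement C1q made by macrophages, had 341 and 165 scaled counts in PLX+PTX+aPD-L1 tumours, against 1011 and 507 scaled counts in PTX tumours (log2 fold change -1.57, adjusted p = 0.209, edgeR). Apoe, a lipid carrier, had 2467 and 2020 scaled counts in PLX+PTX+aPD-L1 tumours, against 7570 and 4890 scaled counts in PTX tumours (log2 fold change -1.47, adjusted p = 0.182, edgeR). None of these 3 overlapped between the groups, as was so for 22% of all tested probes with the PLX+PTX+aPD-L1 libraries below. The monocyte attractant Ccl8, which is in no list, had 43.8 and 60.7 scaled counts in PLX+PTX+aPD-L1 tumours, against 379 and 184 scaled counts in PTX tumours (log2 fold change -2.45, adjusted p = 0.0745, edgeR). Ccl2, another monocyte attractant, overlapped, with 27.9 and 49.1 scaled counts in PLX+PTX+aPD-L1 tumours, against 192 and 47.9 scaled counts in PTX tumours (adjusted p = 0.171, edgeR). Both PLX+PTX+aPD-L1 values of Ccl2 lay below the limit.

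**Figure D3:**
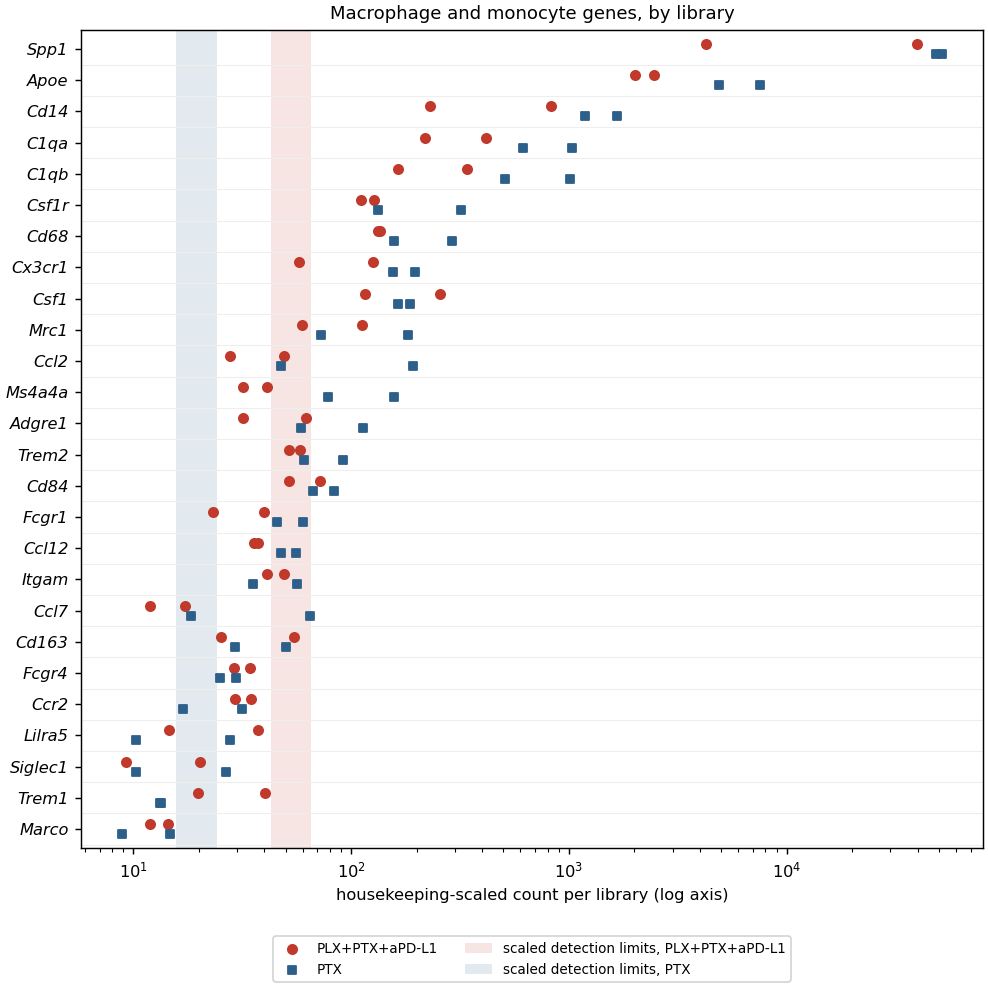
Scaled counts (log axis) of the macrophage and monocyte genes are shown in each PLX+PTX+aPD-L1 and PTX library. Most genes lie lower in the PLX+PTX+aPD-L1 libraries, none passed the threshold, and Csf1 and Ccl2 overlap between the groups.

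Spp1, osteopontin, a matrix protein made by macrophages and tumour cells, dominated the panel. It had 4281 and 39921 scaled counts in PLX+PTX+aPD-L1 tumours, against 51567 and 48588 scaled counts in PTX tumours (log2 fold change -1.18 ± 0.79, SE, adjusted p = 0.517, edgeR). The first PLX+PTX+aPD-L1 library alone was far lower, and without the second one Spp1 passed the threshold as lower (log2 fold change -3.55, adjusted p = 0.0381, edgeR). Spp1 made up 2.29% and 13.99% of endogenous counts in PLX+PTX+aPD-L1 tumours, against 17.5% and 16.9% in PTX tumours. The PLX+PTX+aPD-L1 libraries differed from each other more than the PTX libraries did across the panel. Over the 359 probes above the limit in all 4, the median absolute log2 difference between libraries of a group was 0.54 in PLX+PTX+aPD-L1 tumours and 0.18 in PTX tumours. Differences past 4-fold numbered 12 in PLX+PTX+aPD-L1 tumours and 1 in PTX tumours. Among those 12, named after their values were seen, the glycolytic enzyme gene Ldha had 2973 and 12595 scaled counts in PLX+PTX+aPD-L1 tumours, against 8377 and 7352 scaled counts in PTX tumours, and Arg1, arginase of myeloid cells, had 619 and 142 scaled counts in PLX+PTX+aPD-L1 tumours, against 60.0 and 268 scaled counts in PTX tumours. Both genes overlapped between the groups.

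The lone fall past the threshold was that of Angptl4, a secreted inhibitor of lipoprotein lipase induced by low oxygen and by lipids. Angptl4 had 50.4 and 101 scaled counts in PLX+PTX+aPD-L1 tumours, against 404 and 255 scaled counts in PTX tumours, and all 4 libraries were above the limit. The log2 fold change was -2.16 ± 0.51 (SE, adjusted p = 0.0399, edgeR), and the groups lay well apart. With any 1 of the 4 libraries left out it no longer passed, at adjusted p of 0.0644 to 0.264 (edgeR). It was the 1 call among 20 tested genes of hypoxia and glycolysis, whose median was 0.02 with 11 above 0 and 9 below, and -0.09 to 0.18 with 1 library left out. P4ha2, a collagen hydroxylase of the same list, had 146 and 153 scaled counts in PLX+PTX+aPD-L1 tumours, against 81.7 and 50.1 scaled counts in PTX tumours, and did not pass (adjusted p = 0.296, edgeR). Hif1a, the oxygen-sensing transcription factor, had 78.3 and 72.2 scaled counts in PLX+PTX+aPD-L1 tumours, against 132 and 105 scaled counts in PTX tumours, and did not pass (adjusted p = 0.402, edgeR). These 3 genes of 1 list thus lay on both sides of 0.

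With 1 fall past the threshold, the next lower genes by p are given as not passed. Pla1a, a phospholipase that acts on phosphatidylserine, had 7.96 and 8.67 scaled counts in PLX+PTX+aPD-L1 tumours, against 39.5 and 50.8 scaled counts in PTX tumours (adjusted p = 0.0577, edgeR). Its PLX+PTX+aPD-L1 values lay below even the mean negative control. Lamb3, a laminin chain of epithelial basement membrane, had 67.7 and 113 scaled counts in PLX+PTX+aPD-L1 tumours, against 202 and 194 scaled counts in PTX tumours (log2 fold change -1.16, adjusted p = 0.0770, edgeR). Serpinb5, maspin, a protein of mammary epithelium, had 110.2 and 121 scaled counts in PLX+PTX+aPD-L1 tumours, against 286 and 301 scaled counts in PTX tumours (log2 fold change -1.35, adjusted p = 0.0880, edgeR). For these epithelial genes the libraries of each group lay on separate sides. The same held for 22% of all tested probes with the PLX+PTX+aPD-L1 libraries below.

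Other epithelial and tumour cell genes showed smaller differences. None of 10 tested epithelial genes passed, with a median log2 fold change of -0.09 (-0.41 to -0.03 with 1 library left out). At an unadjusted p under 0.05 (edgeR) 2 were lower, a level at which 6.18% of all tested probes were lower. Above the limit in both libraries of each group were 9 of the 10. Their summed level was 8443 and 9186 scaled counts in PLX+PTX+aPD-L1 tumours, against 11141 and 11365 scaled counts in PTX tumours, so the epithelial markers of the labelled tissue were present in all 4. Epcam, an adhesion protein of epithelium, had 5049 and 5083 scaled counts in PLX+PTX+aPD-L1 tumours, against 6276 and 6533 scaled counts in PTX tumours (log2 fold change -0.34, adjusted p = 0.600, edgeR). Gata3, a transcription factor of mammary luminal cells, had 692 and 1609 scaled counts in PLX+PTX+aPD-L1 tumours, against 1958 and 2092 scaled counts in PTX tumours (adjusted p = 0.278, edgeR).

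Proliferation genes held no call among 17 tested, with 0 lower and 0 higher also at an unadjusted p under 0.05 (edgeR). At that level 6.18% of all tested probes were lower and 11.5% higher. The median log2 fold change of the list was -0.17. Without the first PLX+PTX+aPD-L1 library it was -0.55, where the median over all tested probes was 0.19. Without the second it was 0.12, where the median over all tested probes was -0.17. Mki67, the marker of cycling cells, had 1569 and 1052 scaled counts in PLX+PTX+aPD-L1 tumours, against 1901 and 1885 scaled counts in PTX tumours (log2 fold change -0.53, adjusted p = 0.431, edgeR). Its groups did not overlap, as for 22% of all tested probes with the PLX+PTX+aPD-L1 libraries below, and the difference did not pass. The Wnt pathway list held 1 call among 14 tested, Wnt11, with a median of -0.04 (-0.07 to 0.10 with 1 library left out). Dkk1, a secreted Wnt inhibitor, had 19.9 and 26.01 scaled counts in PLX+PTX+aPD-L1 tumours, against 9.45 and 11.8 scaled counts in PTX tumours, below the limit in all 4 (adjusted p = 0.200, edgeR). Genes of amino acid transport and catabolism held no call among 8 tested, with 4 higher at an unadjusted p under 0.05 (edgeR), a level at which 11.5% of all tested probes were higher, and a median of 0.96 (0.64 to 0.93 with 1 library left out). Slc1a5, a glutamine transporter, had 113 and 176 scaled counts in PLX+PTX+aPD-L1 tumours, against 94.5 and 67.7 scaled counts in PTX tumours (adjusted p = 0.233, edgeR).

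**Figure D4:**
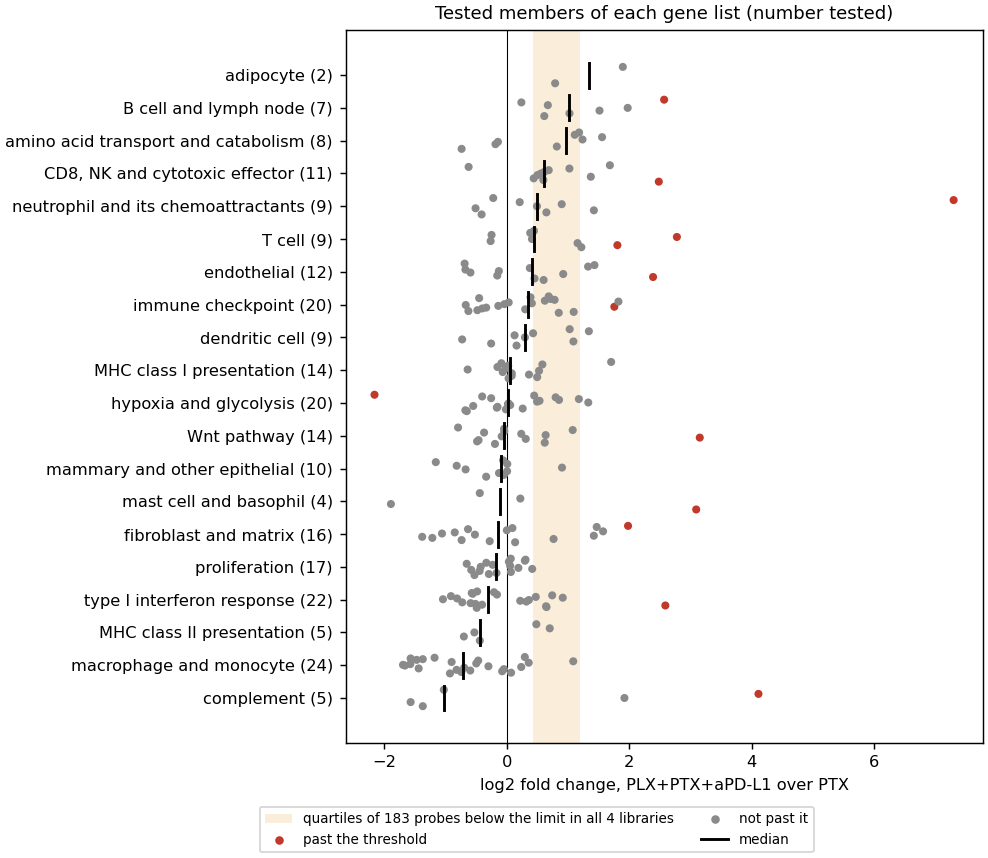
Fitted log2 fold changes (horizontal axis, PLX+PTX+aPD-L1 over PTX) of the tested members of 20 gene lists, with the number tested in brackets, a black bar at each median and red points for genes past the threshold. The shaded band spans 0.43 to 1.19, the quartiles of the 183 probes below the detection limit in all 4 libraries, and the median of -0.72 for macrophage and monocyte genes lies on the other side of 0.

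Vessel, stroma and fat genes were mixed. Kdr, the VEGF receptor of endothelium, had 167 and 361 scaled counts in PLX+PTX+aPD-L1 tumours, against 48.4 and 51.5 scaled counts in PTX tumours (log2 fold change 2.39 ± 0.53, SE, adjusted p = 0.0319, edgeR), with all 4 libraries above the limit. The Kdr call ended with the negative controls subtracted, without the second PLX+PTX+aPD-L1 library and without either PTX library. It was the 1 call among 12 tested endothelial genes, 7 of which were above 0 (median 0.41). Without the second PLX+PTX+aPD-L1 library the median was -0.32 with 4 of 12 above 0, without the first it was 0.97, and without the second PTX library it was 0.14. Icam2, an endothelial adhesion protein, had 47.8 and 75.1 scaled counts in PLX+PTX+aPD-L1 tumours, against 25.02 and 19.1 scaled counts in PTX tumours, and did not pass (adjusted p = 0.0577, edgeR). Among 16 tested fibroblast and matrix genes Cxcl12 alone passed, and the median was -0.14. It was 0.11 without the first PLX+PTX+aPD-L1 library, -0.36 without the second and -0.42 without the first PTX library. Pdgfrb, a receptor of pericytes and fibroblasts, had 66.4 and 144 scaled counts in PLX+PTX+aPD-L1 tumours, against 35.0 and 42.0 scaled counts in PTX tumours (adjusted p = 0.123, edgeR). Fap, a protease of activated fibroblasts, had 14.6 and 14.4 scaled counts in PLX+PTX+aPD-L1 tumours, against 40.03 and 36.1 scaled counts in PTX tumours (adjusted p = 0.152, edgeR). Both PLX+PTX+aPD-L1 values of Fap were below the limit, and its PTX values also lay under the PLX+PTX+aPD-L1 limits. Pdgfrb and Fap lay on opposite sides without passing. Both adipocyte genes, Cd36 and Pparg, were above 0 without passing (median 1.34). Cd36, a fatty acid carrier of fat cells, endothelium and macrophages, had 555 and 679 scaled counts in PLX+PTX+aPD-L1 tumours, against 188 and 143 scaled counts in PTX tumours (adjusted p = 0.345, edgeR), and the same gene reached 506 in 1 library of the R group.

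Type I interferon genes were measured well, and 1 of 22 tested passed as higher. Ifitm1, a membrane protein that restricts viruses, had 108 and 159 scaled counts in PLX+PTX+aPD-L1 tumours, against 25.02 and 18.4 scaled counts in PTX tumours (log2 fold change 2.59 ± 0.47, SE, adjusted p = 0.00985, edgeR). This call ended with the negative controls subtracted, where limma replaced edgeR (adjusted p = 0.120, limma), and with positive-control scaling (adjusted p = 0.0543, edgeR). It also ended without the second PLX+PTX+aPD-L1 library and without either PTX library. The other 21 did not pass, and 13 of the 22 were below 0 (median -0.31). Without the first PLX+PTX+aPD-L1 library the median was 0.24 with 15 of 22 above 0, without the second it was -0.68, and without the first PTX library -0.08. Irf9, a subunit of the interferon-activated factor ISGF3, had 228 and 364 scaled counts in PLX+PTX+aPD-L1 tumours, against 545 and 431 scaled counts in PTX tumours (adjusted p = 0.306, edgeR). Isg15, an interferon-induced ubiquitin-like protein chosen after its values were seen, had 87.6 and 355 scaled counts in PLX+PTX+aPD-L1 tumours, against 359 and 260 scaled counts in PTX tumours (adjusted p = 0.773, edgeR), so its groups overlapped.

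Ifitm1 has a neighbouring family member on the panel, Ifitm2, which did not pass: Ifitm2 had 1902 and 2809 scaled counts in PLX+PTX+aPD-L1 tumours, against 3003 and 3230 scaled counts in PTX tumours (log2 fold change -0.40, adjusted p = 0.508, edgeR). The promoter windows of this pair are shown because the genes share an interferon-inducible family, while only Ifitm1 of the pair passed the threshold; the difference between them was not tested. They run from 250 bases before to 50 bases after the RefSeq start (GRCm38.p6), Ifitm1 at chr7:140967826-140968125 on the + strand and Ifitm2 at chr7:140955912-140956211 on the - strand. Capitals mark GAAANNGAAA, the core letters of the interferon-stimulated response element, searched on both strands.
Ifitm1: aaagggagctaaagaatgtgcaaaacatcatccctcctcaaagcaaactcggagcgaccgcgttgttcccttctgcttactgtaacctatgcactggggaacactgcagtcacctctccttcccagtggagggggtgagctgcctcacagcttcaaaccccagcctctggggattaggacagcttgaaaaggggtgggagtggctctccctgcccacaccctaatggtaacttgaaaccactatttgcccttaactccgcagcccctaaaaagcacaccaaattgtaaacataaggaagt
Ifitm2: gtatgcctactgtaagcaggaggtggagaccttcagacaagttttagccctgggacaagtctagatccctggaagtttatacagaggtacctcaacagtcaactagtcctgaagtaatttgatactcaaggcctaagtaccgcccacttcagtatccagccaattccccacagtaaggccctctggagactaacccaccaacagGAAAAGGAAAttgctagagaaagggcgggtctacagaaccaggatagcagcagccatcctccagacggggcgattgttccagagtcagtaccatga
The Ifitm2 window holds the letters once, beginning at position -46 from the start, and the Ifitm1 window does not hold them. They are found in 3.44% of all 32851 windows. Among 18 interferon-list genes with a window 9 hold them, and of the 20 changed genes 17 have a window and 2 of these hold them, Gzma and Tnfsf13b. Such a match is a description of letters and not of a site in use.

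Antigen presentation and the remaining leukocyte lists held few calls. None of 14 tested genes of MHC class I presentation passed (median 0.05, and -0.06 to 0.17 with 1 library left out). Nlrc5, the transcriptional activator of MHC class I genes, had 83.6 and 89.6 scaled counts in PLX+PTX+aPD-L1 tumours, against 16.7 and 36.8 scaled counts in PTX tumours (adjusted p = 0.172, edgeR). Tapbp, the chaperone tapasin, had 365 and 448 scaled counts in PLX+PTX+aPD-L1 tumours, against 631 and 634 scaled counts in PTX tumours (adjusted p = 0.253, edgeR). Neither gene overlapped between the groups, and they lay on opposite sides. Of all tested probes, 24.7% had the PLX+PTX+aPD-L1 libraries wholly above the PTX libraries and 22% wholly below. None of 5 tested MHC class II genes passed (median -0.44). Their median was 0.22 without the first PLX+PTX+aPD-L1 library, -1.67 without the second, 0.33 without the first PTX library and -0.94 without the second. H2-Aa, a class II chain, had 215 and 1162 scaled counts in PLX+PTX+aPD-L1 tumours, against 1532 and 689.8 scaled counts in PTX tumours, with overlap.

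Among 9 tested dendritic cell genes none passed (median 0.29). The median was -0.01 without the second PLX+PTX+aPD-L1 library and -1.01 with the negative controls subtracted, beside -0.17 and -0.34 over all tested probes. Of 9 tested genes of neutrophils and their attractants Cxcl15 alone passed (median 0.49). The median was 0.11 without the second PTX library, 0.32 without the second PLX+PTX+aPD-L1 library and -0.09 with the negative controls subtracted. Over all tested probes it was -0.01, -0.17 and -0.34 in the same settings. Csf3, the neutrophil growth factor, had 37.2 and 14.4 scaled counts in PLX+PTX+aPD-L1 tumours, against 11.7 and 8.83 scaled counts in PTX tumours, below the limit in all 4. Of 4 tested genes of mast cells and basophils Hdc passed (median -0.11). The median was 0.37 without the first PLX+PTX+aPD-L1 library and -0.84 without the second. Cpa3, the mast cell carboxypeptidase, had 7.96 and 5.78 scaled counts in PLX+PTX+aPD-L1 tumours, against 26.1 and 27.98 scaled counts in PTX tumours (adjusted p = 0.211, edgeR). Its values were lower where Hdc was higher, but both PLX+PTX+aPD-L1 values were below the limit. Its PTX values also lay under the PLX+PTX+aPD-L1 limits. Of 5 tested complement genes Hc passed as higher while the median was -1.03. Without the first PTX library that median was 0.16 with 3 of 5 above 0, and without the second it was -1.66. C2, a classical pathway protease, had 54.4 and 196 scaled counts in PLX+PTX+aPD-L1 tumours, against 26.7 and 37.5 scaled counts in PTX tumours (adjusted p = 0.0723, edgeR), on the other side of 0 from the C1q chain C1qb.

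The other groups place the 20 called genes. Against the mean of the R and NR groups, edgeR's quasi-likelihood test called 35 of 615 genes higher in PLX+PTX+aPD-L1 tumours (5.69%) and 0 lower, with the same PLX+PTX+aPD-L1 libraries in both comparisons. Of the 19 genes higher than in PTX tumours, 18 were among these, the exception being Hmga1. Sox2 averaged 120 scaled counts in PLX+PTX+aPD-L1 tumours, against 20.9 in PLX+PTX tumours and at most 19.7 in any R or NR library. Cxcl12 averaged 429 scaled counts in PLX+PTX+aPD-L1 tumours, against 96.2 in PLX+PTX tumours and at most 143 in any R or NR library. Jag1 averaged 254 scaled counts in PLX+PTX+aPD-L1 tumours, while 1 NR library reached 176. Angptl4 averaged 75.8 scaled counts in PLX+PTX+aPD-L1 tumours, against 167 in PLX+PTX tumours and 174 over the R and NR libraries. The levels of these genes in PLX+PTX, R and NR tumours were thus nearer to PTX tumours for Sox2 and Cxcl12, and in between for Angptl4.

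**Figure D5:**
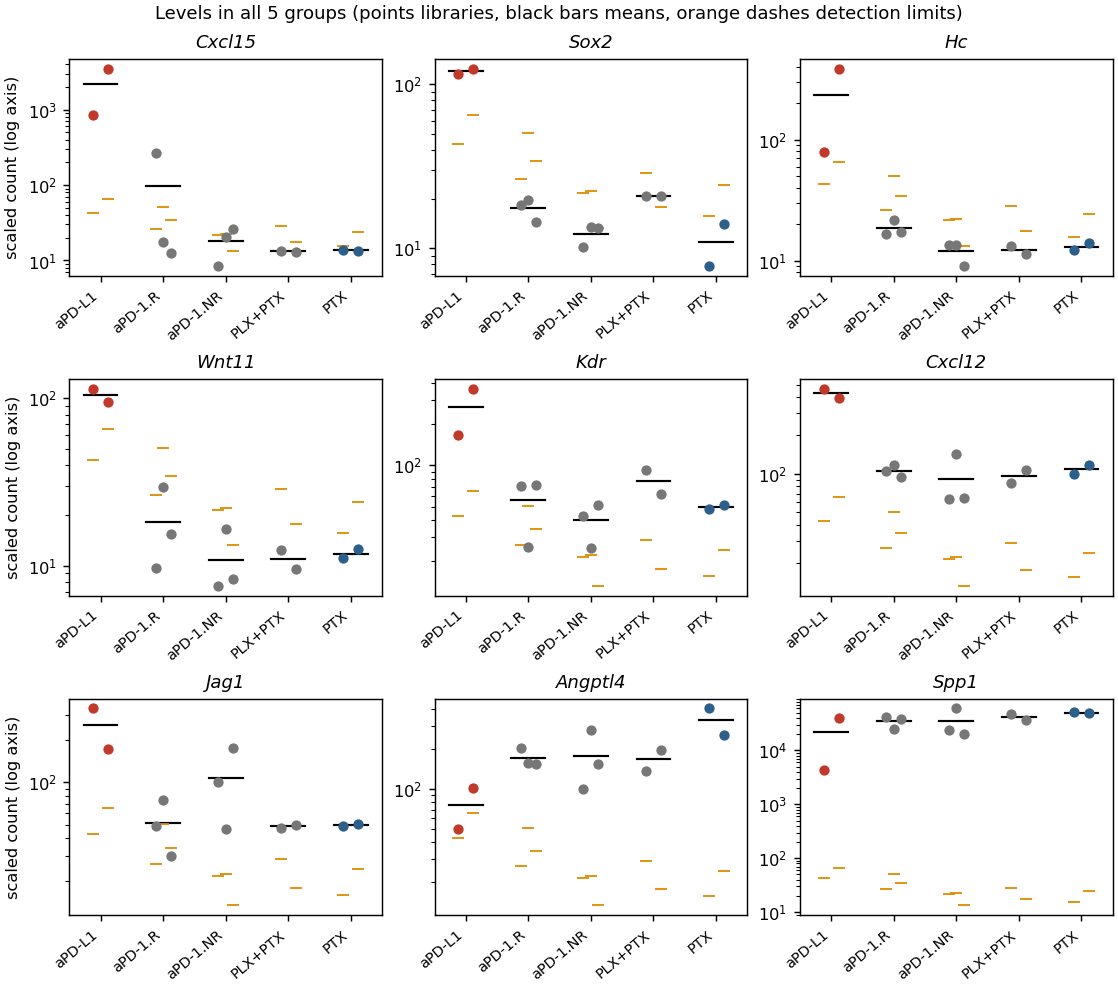
Scaled counts (log axis) of selected called genes, and of Spp1, which was not called, are shown in every library of the 5 groups (points). Dashes mark the detection limits. For Sox2 and Cxcl12 the PLX+PTX+aPD-L1 libraries lie above each of the other 10, while for Angptl4 1 NR library, at 99.7, lies just under the upper PLX+PTX+aPD-L1 library. On the axis the antibodies stand for groups given PLX+PTX as well, and the bars are means.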

How the data were processed

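The members and gene lists were chosen with earlier results of these data known. The deposited raw values are unnormalized counts per probe, per the file headers. The authors' processed table holds log2 values. DESeq2 and limma appear in the submitters' processing notes, with no role or version. How those log2 values were adjusted was not given in the sources used here. PLX+PTX+aPD-L1 and PTX libraries were named in order of deposition, and the numbers pair nothing.

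Each library was scaled on the geometric mean of its 20 housekeeping probes. This scaling itself sets their centre near 0 (median log2 ratio between the groups -0.04), so that median is no check of it. Single housekeeping probes ran from -0.82 to 1.05 after scaling. A probe was tested if at least 2 libraries had 20 raw counts for it (615 of 750 endogenous probes). A model with a mean for each of the 5 groups was fitted to all 12 libraries by edgeR's quasi-likelihood method (version 4.0.16, R 4.3.3, 7 residual degrees of freedom), with Benjamini-Hochberg adjustment. Fold changes and their SE are from this fit. Where both libraries of a group were below the detection limit, the fold is a bound against that limit. No bound is given where a library of the other group was below its limit too. The fit was tested on simulated counts. Alternatives used TMM, total counts, positive controls, DESeq2 1.42.0, limma 3.58.1 (voom and the deposited log2 values), subtraction of the negative controls, other filters and left-out libraries. Counts with the negative controls subtracted were floored at 1 and tested by limma on their log2 values. That setting therefore changed the test as well. The 2 libraries of a group differed beyond sampling noise, with a chi-square per degree of freedom of 45.9 in PLX+PTX+aPD-L1 tumours and 15.7 in PTX tumours. The named genes were the 12 largest rises and falls past the threshold (in a direction with under 6, those of smallest p up to 6), up to 3 of smallest p per list, and 11 fixed genes, of which Krt18 was not among the endogenous probes. Of 750 symbols, 744 matched a RefSeq table (GRCm38.p6) and 6 matched a synonym. A gene that this naming rule takes, and that is counted among the 19 higher, is not reported here.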

Additional observations from a re-analysis of the deposited data

Results flagged for a closer look

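The PLX+PTX+aPD-L1 tumours were also set against the mean of the R and NR tumours, which had PLX and PTX with an antibody against PD-1. The genes below are those named in the report that were higher in PLX+PTX+aPD-L1 tumours in that comparison by edgeR's quasi-likelihood test. Both comparisons use the same 2 PLX+PTX+aPD-L1 libraries, which are among the dimmest of the series in housekeeping signal. Of the genes changed against PTX tumours, 18 differed from R and NR in the main fit, and 8 with the negative controls subtracted (limma). The part of the lifted background in each value below was not tested. Each value is a fitted log2 fold change, PLX+PTX+aPD-L1 over the mean of R and NR. Hc, Sox2, Wnt11, Hdc, Zap70, Ifitm1 and Btla were under the detection limit in all 6 R and NR libraries, so their values are fitted against background and are neither exact folds nor bounds.

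Attractants and complement genes differed by 5.64 for Cxcl15 (adjusted p = 0.000993, edgeR), 3.93 for Hc, 2.64 for C2, 2.14 for Cxcl12 and 1.45 for Tnfsf13b. The stem cell factor, Wnt and Notch ligand genes differed by 3.03 for Sox2 (adjusted p = 2.9e-05, edgeR), 2.95 for Wnt11 and 1.80 for Jag1. Enzymes and transporters differed by 3.79 for Hdc, 2.68 for Tymp, 1.92 for Fut4 and 0.9996 for Slc1a5 (adjusted p = 0.0477, edgeR). Vessel and stromal genes differed by 2.45 for Kdr, 1.84 for Pdgfrb and 1.36 for Icam2.

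Lymphocyte and receptor genes differed by 2.68 for Zap70, 1.95 for Btla and 1.48 for Tnfrsf14. Ifitm1, of the interferon list, differed by 3.24. Gzma, Il22ra1 and Cd2 also passed, with both PLX+PTX+aPD-L1 libraries under the detection limit, and no fold is given for them. C2, Tnfrsf14, Pdgfrb, Icam2 and Slc1a5 did not pass against PTX tumours.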

How the results depend on the processing

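The 4 PLX+PTX+aPD-L1 and PTX libraries and the background of the dimmer pair limit these results: 135 endogenous probes were too low to test. No paired analysis was possible because the labels give no replicate numbers that the groups share. Against 19 genes higher and 1 lower than in PTX tumours, with 18 of the 19 also higher than the R and NR mean, the counts moved as follows, and the cause was not tested. TMM gave 3 lower. Scaling on total endogenous counts gave 45 higher, and 42 of these differed from R and NR. Positive-control scaling gave 9 higher, 356 lower and 166 that differed from R and NR. DESeq2 gave 12 lower and 30 that differed from R and NR, limma-voom gave 2 lower, and limma on the deposited log2 values gave 23 lower. Subtracting the negative controls gave 8 higher, all 8 of which differed from R and NR, and the 1 lower gene was Tlr8. Testing all 750 probes gave 29 higher and 2 lower. Requiring a signal over the detection limit in at least 10 libraries, which left 4 of the 20 called genes, gave 0 higher, 0 lower and 0 that differed from R and NR, with 46 at an unadjusted p under 0.05 (edgeR). Testing only probes above it in all 4, an alternative chosen after seeing the data, also gave 0 and 0. Leaving out the dim R library gave 2 lower, and so did fitting the 4 libraries alone. Leaving out 1 library at a time gave 2 to 26 higher, 0 to 2 lower and 2 to 24 that differed from R and NR.

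Across 75 named genes and 1156 recomputed values, 946 kept their direction and side of the threshold, 84 newly passed, 86 no longer passed and 40 changed sign. Sox2 passed in 15 of 15 settings, Wnt11, Tymp and Hc in 14 of 15, and Zap70 in 12 of 13. Kdr passed in 10 of 17, Angptl4 and Cxcl12 in 9 of 17 and Jag1 in 8 of 17. With positive-control scaling, which moved the median of all genes to -1.45 on the log2 scale, the sign changed for Cd28 (-0.26), Spib (-0.32), Clec4e (-0.44), Hsd11b1 (-0.077), Itgae (-0.38), Cxcl3 (-0.60), Tap2 (-1.02), H2-DMa (-0.83), H2-Ob (-0.97), Lag3 (-0.37), Ube2t (-0.99), Pdgfrb (-0.094), Icam2 (-0.057), Tie1 (-0.56), Pparg (-0.70), Dkk1 (-0.32), P4ha2 (-0.30), Tdo2 (-0.25), Nos2 (-0.33), Slc1a5 (-0.71), Csf1 (-1.49), Cd274 (-0.68), Gzmb (-0.86) and Hmga1 (-0.0033). With the negative controls subtracted it changed for H2-DMa (-0.29), Csf1 (-0.16), Cd274 (-0.47) and Gzmb (-0.65). Csf1 was at -0.049 with DESeq2, -0.077 with limma-voom and -0.22 on the deposited log2 values, and Epcam at 0.027 with total counts. Leaving out 1 library gave -0.38 to 2.14 for Itgae, -0.26 to 1.76 for Cxcl3, -1.66 to 0.22 for Kit, -0.026 to 1.30 for H2-DMa, -2.37 to 0.064 for H2-Aa, -0.60 to 0.56 for Csf1 and -0.22 to 1.61 for Cd274. Total counts moved the median of all genes to 0.36.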

Other observations

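Of the 3 R libraries, 1 had the 265 scaled counts of Cxcl15 and also 506 scaled counts of Cd36, while the other R libraries had 17.7 and 12.5 scaled counts of Cxcl15 and 47.3 and 43.3 scaled counts of Cd36. No test was made of this pattern, which was noticed after the values were seen.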
